A study of Mus musculus with 15 samples.

Results

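Elastic fibres and the fibrillin microfibrils that carry them are built from a small set of secreted proteins, and the 10 genes described here encode elastin, the fibrillins and the proteins that assemble them: *Eln*, *Fbn1*, *Fbn2*, *Fbln1*, *Fbln2*, *Fbln5*, *Efemp2*, *Emilin1*, *Mfap4* and *Mfap5*. They were chosen by symbol from the deposited count table, which lists 56748 genes, of which 37808 had a count, and all 10 were found and passed the filter on low counts in every comparison. RNA was sequenced from kidney and lung of male wild-type C57Bl/6 mice, 3 libraries in each of 5 groups, to ask what neutralizing leptin, the hormone secreted by fat cells, does in injured organs. In kidney, WTK mice had received vehicle, IgGK mice control IgG after 200 mg/kg folic acid, and LepK mice the antibody LepAb, which neutralizes leptin, at 10 mg/kg after the same folic acid, in animals of 10 to 12 weeks taken on day 28. In lung, IgGL and LepL mice of 12 weeks had received intratracheal bleomycin at 1.5 units/kg with control IgG or LepAb at 10 mg/kg and were taken on day 14. Folic acid in high dose injures the renal tubule, bleomycin injures the lung, and both are used as models of fibrosis. No lung without bleomycin was analysed here, so the lung comparison is between injured lungs.

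An elastic fibre has a core of cross-linked elastin, which gives arteries, lung and skin their recoil, laid down on a scaffold of microfibrils made of fibrillins. Fibulin-5 (*Fbln5*) and fibulin-4 (*Efemp2*) bring tropoelastin to the microfibril and to lysyl oxidase, the enzyme that cross-links it, while fibulin-1 (*Fbln1*), fibulin-2 (*Fbln2*), emilin-1 (*Emilin1*) and the microfibril-associated proteins (*Mfap4*, *Mfap5*) bind along the fibre. Microfibrils also hold latent TGF-beta through the LTBP proteins, and fibroblasts, smooth muscle cells and mesothelial cells are known sources of these proteins.

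Promoter sequences from RefSeq on GRCm38.p6 are shown for *Fbn1*, *Emilin1* and *Fbln2*, the genes with an entry that were down-regulated with LepAb in both kidney and lung. Each line gives 120 bases that end just before the annotated start, 5′ to 3′ on the strand of the gene: chr2:125506439-125506558 (minus strand) for *Fbn1*, chr5:30913666-30913785 (plus strand) for *Emilin1* and chr6:91212644-91212763 (plus strand) for *Fbln2*. Capitals mark the letters GGGCGG read on either strand.
Fbn1: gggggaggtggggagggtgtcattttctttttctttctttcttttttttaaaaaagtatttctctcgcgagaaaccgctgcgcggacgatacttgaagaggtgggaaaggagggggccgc
Emilin1: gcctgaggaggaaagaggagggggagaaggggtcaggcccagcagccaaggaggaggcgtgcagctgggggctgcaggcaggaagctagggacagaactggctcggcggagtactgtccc
Fbln2: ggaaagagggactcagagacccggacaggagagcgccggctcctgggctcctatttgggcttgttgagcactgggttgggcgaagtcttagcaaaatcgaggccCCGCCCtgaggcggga
The table gives 300 bases around each start, 250 before and 50 after, and 6 of the 10 genes matched it (*Fbn1*, *Fbln1*, *Fbln2*, *Fbln5*, *Efemp2* and *Emilin1*), with 10 entries in all. At 60.0% of the genes, a comparison of promoter properties over the family is void. In the matched entries, read on both strands, TATAAA was found in 0, the AP-1 letters TGANTCA in 0, the palindromic SMAD letters GTCTAGAC in 0 and the CArG box in 0. The same letters occur in 13.6%, 7.81%, 0.213% and 1.63% of the 32851 promoters of that length. GGGCGG, a search added after the sequences were read and therefore shown only as a mark on them, was found in 7 of the 10 entries, which belong to 5 genes, and nothing is read from this count. A match here is a description of letters and not of a bound site.

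The libraries held 25913969 to 38924788 counted reads each, so that 1 count equals 0.0257 to 0.0386 CPM, the count scaled to a common library total. Below, CPM values are also scaled by edgeR's TMM factors within each organ, and a gene is called up-regulated or down-regulated where its log2 fold change is beyond 0.5 in either direction with an adjusted p (Benjamini-Hochberg) under 0.05, from edgeR's quasi-likelihood test on all genes. Errors of CPM are SD with n = 3, and those of log2 fold changes are SE. The study describes the lung groups by their number of mice and the kidney groups only by n, and the labels do not tie a library to a mouse. For kidney, p-values therefore measure the spread between these libraries, which may be technical in part. In whole-organ RNA, fewer cells of a type and less RNA per cell cannot be told apart. The tissue labels fitted their markers, since the summed CPM of 7 proximal tubule genes was 11621 to 49332 in kidney and 741 to 1011 in lung, and that of 7 alveolar and airway genes was 16424 to 47321 in lung and 5.61 to 22.4 in kidney.

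By position in the deposited table, whose labels name GRCm39, *Eln* lies at chr5:134731447-134776177, *Fbn1* at chr2:125142514-125349913 and *Mfap4* at chr11:61376257-61379726. The libraries did not keep the strand, so reads from overlapping genes on opposite strands cannot be told apart. *Mfap4* overlaps *Mapk7*, which had 12619 counts over the 15 libraries against 101611 for *Mfap4*, and *Efemp2* overlaps *Mus81*, with 8480 counts against 25653. These totals pool the organs. *Mfap4* had 87 counts in WTK, 1215 in IgGK and 545 in LepK, against 51805 in IgGL and 47959 in LepL. *Efemp2* had 789, 4933 and 2625 in the kidney groups. *Mapk7* and *Mus81* were not counted by organ here, so their part in the kidney values is not known and may be larger than the totals show. The other 8 genes overlapped no gene with more than 48 counts.

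Per unit of gene length, the organs used a different mix of these genes. On the deposited FPKM scale (reads scaled by gene length and library size), *Fbln5* made up 46.6% to 57.9% of the summed level of the 10 genes in the WTK libraries. *Emilin1* followed at 19.3% to 22.2% and *Efemp2* at 7.83% to 10.7%. *Eln*, the fibre core, made up only 4.21% to 4.93%. In IgGK the share of *Fbln5* was 19.8% to 21.4%, close to the 20.4% to 21.9% of *Emilin1*, and *Mfap5* had gone from 0.425% to 1.98% in WTK to 12.1% to 12.2%. In LepK the share of *Fbln5* was 25.7% to 31.8% and that of *Mfap5* 3.88% to 9.07%, both between the ranges of WTK and IgGK.

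In the bleomycin lung, *Eln* led the level per length with 302, 388 and 224 FPKM in IgGL, and *Mfap4* followed with 271, 150 and 113 FPKM. The ranges of these leading genes over the libraries overlapped, but within each IgGL library *Eln* was above *Mfap4*. Both stood apart from *Fbn1*, next at 34.8 FPKM on average. *Eln* took 42.3% to 56.3% of the summed level in IgGL and 24.9% to 30.8% in LepL. *Mfap4* took 21.7% to 38.0% in IgGL and 43.7% to 45.7% in LepL. In LepL the order of this pair was the other way round, at 170 FPKM on average for *Mfap4* and 109 FPKM for *Eln*. *Mfap4* was above *Eln* within each LepL library, at 179, 199 and 130 FPKM against 120, 134 and 72.1 FPKM. *Fbn2*, the fibrillin known for its role in development, was last in each of the 5 groups, at 0.0130 FPKM on average in WTK and at most 0.433 FPKM, in IgGK.

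**Figure D1:**
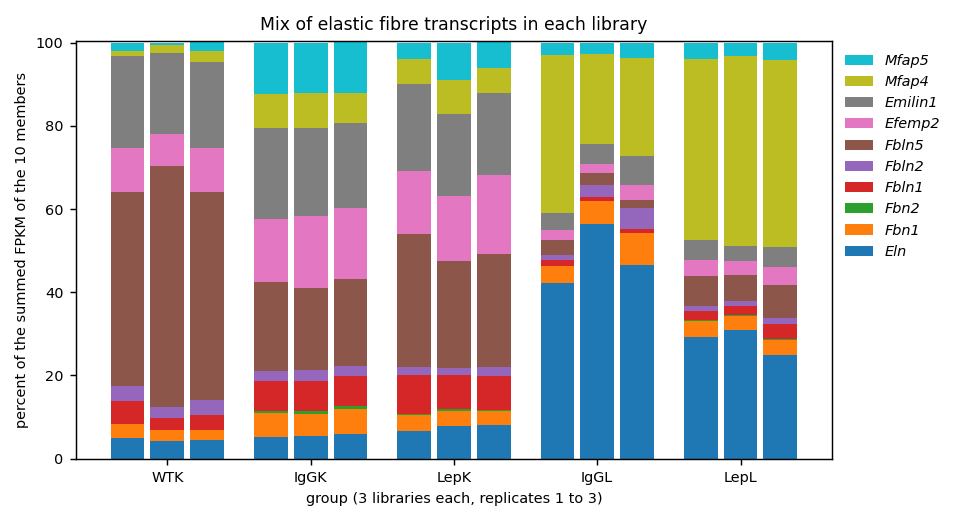
Stacked bars give the percent of the summed FPKM of the 10 genes that each gene made up, 1 bar per library in each of 5 groups. *Fbln5* is the widest band in the WTK kidney (46.6% to 57.9%), and *Eln* with *Mfap4* fills most of each lung bar.

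The family was higher in the folic acid kidney with 1 exception. Of the 10 genes, 9 were up-regulated in IgGK against WTK, in which 21.7% of the 19593 genes tested were called up and 15.6% down, and the exception was *Fbln5*, which was called as well when counts were scaled by library size alone. By their labels IgGK and WTK differ in folic acid and in IgG alike, and these cannot be told apart. The median log2 fold change of the 10 was 2.33, against 0.04 over all genes tested. With LepAb 7 of the 10 were down-regulated in LepK against IgGK, where 5.99% of genes were called down and 4.38% up, with a median of −0.88 against −0.01. The comparisons share the IgGK libraries, so the fall and the rise are not independent of each other.

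The fibre core and its scaffold came first. *Eln* was measured at 9.80, 9.71 and 10.7 CPM in WTK, 33.4, 37.3 and 35.4 CPM in IgGK and 21.6, 34.8 and 31.3 CPM in LepK. Each IgGK library was above each WTK library, whereas LepK overlapped IgGK, with LepK replicate 1 the lowest. The rise was 1.81 ± 0.15 on the log2 scale (edgeR, adjusted p = 6.99e-07). The difference between LepK and IgGK was −0.27 ± 0.14 and did not pass the test (edgeR, adjusted p = 0.19), and *Eln* remained 1.54 ± 0.15 above WTK in LepK (edgeR, adjusted p = 1.33e-05).

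*Fbn1*, the main fibrillin of adult tissue, was 9.72, 9.40 and 9.59 CPM in WTK, 54.7, 51.4 and 53.4 CPM in IgGK and 17.8, 24.6 and 20.3 CPM in LepK. The 3 kidney groups were wholly apart, with LepK between the other two. *Fbn1* rose by 2.47 ± 0.11 in IgGK (edgeR, adjusted p = 1.41e-08), fell by 1.34 ± 0.10 in LepK against IgGK (edgeR, adjusted p = 5.62e-05) and was still 1.13 ± 0.11 above WTK there (edgeR, adjusted p = 1.44e-05). The mean of LepK was 39.4% of that of IgGK.

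*Fbn2* was close to the limit of detection in the control kidney, with 15, 0 and 0 counts in WTK, 176, 315 and 225 in IgGK and 59, 76 and 48 in LepK. The groups did not overlap. Its log2 fold change of 5.14 ± 0.73 in IgGK (edgeR, adjusted p = 6.63e-05) rests on the 15 counts of WTK replicate 1, without which the control is at 0 and the size of the rise has no upper limit. The fall with LepAb was 1.76 ± 0.55 (edgeR, adjusted p = 0.0405). That call was lost with DESeq2 (adjusted p = 0.348) and when any 1 of the IgGK libraries or LepK replicate 1 or 3 was left out (edgeR, adjusted p 0.0658 to 0.142).

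Among the fibulins, *Fbln1* was 5.77, 3.51 and 4.80 CPM in WTK, 24.6, 26.4 and 23.2 CPM in IgGK and 16.2, 19.8 and 17.4 CPM in LepK. It rose by 2.40 ± 0.16 in IgGK against WTK (edgeR, adjusted p = 1.43e-07). Each LepK library was below each IgGK library, and the difference of −0.47 ± 0.14 passed the p threshold (edgeR, adjusted p = 0.0318) but not the fold threshold, so it was not called. *Fbln1* was 1.92 ± 0.16 above WTK in LepK (edgeR, adjusted p = 4.26e-06).

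*Fbln2* was 5.82, 4.86 and 6.67 CPM in WTK, 11.8, 13.2 and 11.8 CPM in IgGK and 5.30, 6.07 and 6.72 CPM in LepK. The IgGK libraries stood above the other 6, and LepK and WTK overlapped. The rise was 1.08 ± 0.16 (edgeR, adjusted p = 7.9e-05) and the fall with LepAb 1.02 ± 0.16 (edgeR, adjusted p = 0.00103). LepK and WTK differed by 0.06 ± 0.16 (edgeR, adjusted p = 0.807).

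*Efemp2*, which encodes fibulin-4, was 9.76, 8.45 and 12.3 CPM in WTK, 45.0, 54.8 and 47.7 CPM in IgGK and 23.2, 32.7 and 34.9 CPM in LepK. The 3 groups did not overlap. It rose by 2.27 ± 0.16 (edgeR, adjusted p = 2.77e-07) and fell by 0.70 ± 0.15 with LepAb (edgeR, adjusted p = 0.00666). *Fbln5*, the other fibulin that guides elastin assembly, was 79.0, 114 and 105 CPM in WTK, 116, 114 and 107 CPM in IgGK and 87.7, 97.7 and 90.8 CPM in LepK. WTK overlapped both other groups, and its replicate 1 was its lowest library. The log2 differences of *Fbln5* were 0.17 ± 0.11 for IgGK against WTK (edgeR, adjusted p = 0.202) and −0.29 ± 0.11 for LepK against IgGK (edgeR, adjusted p = 0.0885).

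*Emilin1*, an elastic fibre glycoprotein that restrains TGF-beta processing, was 26.8, 27.1 and 31.0 CPM in WTK, 85.1, 86.0 and 74.1 CPM in IgGK and 41.2, 53.3 and 47.3 CPM in LepK. LepK lay between the other groups without overlap. The gene rose by 1.53 ± 0.10 (edgeR, adjusted p = 1.64e-07) and fell by 0.79 ± 0.10 with LepAb (edgeR, adjusted p = 0.000373).

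The microfibril-associated genes had large rises from low levels. *Mfap4* was 0.582, 1.15 and 1.59 CPM in WTK, 12.6, 13.6 and 10.3 CPM in IgGK and 4.58, 8.58 and 5.54 CPM in LepK. *Mfap5* was 1.74, 0.434 and 2.16 CPM in WTK, 34.4, 36.0 and 31.9 CPM in IgGK and 5.56, 17.9 and 10.8 CPM in LepK. For both genes the groups were apart and LepK replicate 2 was the highest of its group. *Mfap4* rose by 3.44 ± 0.32 (edgeR, adjusted p = 2.06e-06) and *Mfap5* by 4.54 ± 0.44 (edgeR, adjusted p = 2.8e-06). With LepAb, *Mfap5* fell by 1.58 ± 0.35 (edgeR, adjusted p = 0.00832). *Mfap4* fell by 0.96 ± 0.28 (edgeR, adjusted p = 0.0272), a call that was lost without IgGK replicate 1 or 2 or LepK replicate 1 or 3 (edgeR, adjusted p 0.0742 to 0.1).

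**Figure D2:**
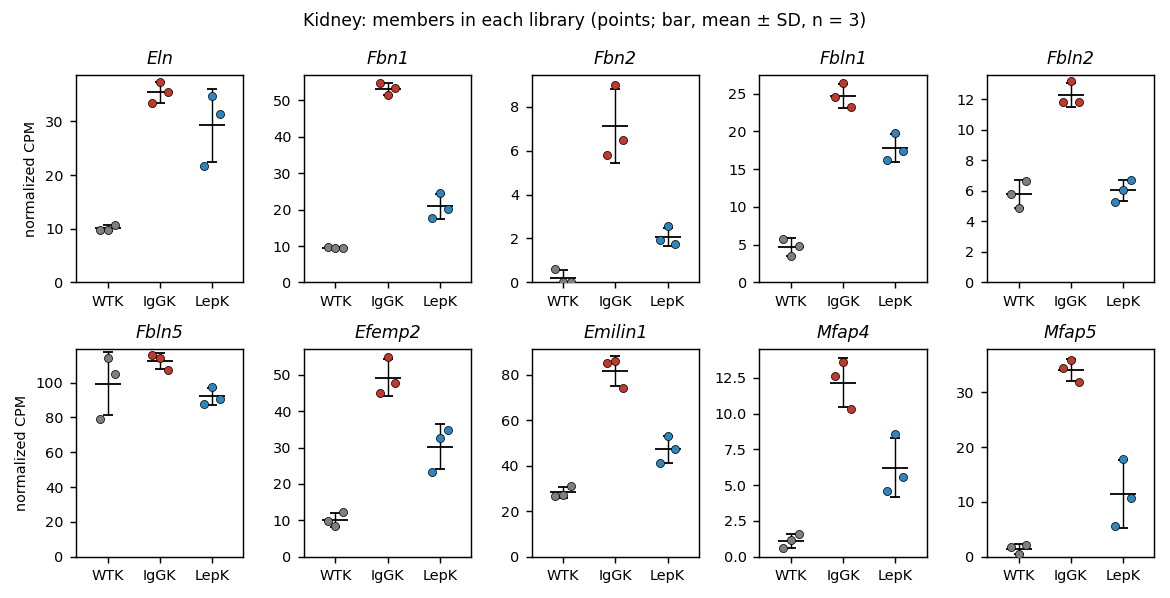
Normalized CPM of each gene in the 9 kidney libraries, 1 panel per gene with its own scale from 0, with points for libraries and bars for mean ± SD (n = 3). IgGK and WTK overlap for *Fbln5*. LepK lies below IgGK without overlap for 9 of the 10 genes, *Eln* being the exception, a pattern that 19.5% of all genes tested had.

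The return toward the control was partial. Of the 10 genes, 8 were still up-regulated in LepK against WTK, where 15.2% of the genes tested were called up, and the other two were *Fbln2* and *Fbln5*. In LepK against IgGK, 9 of the 10 genes had every LepK library below every IgGK library, a pattern that 19.5% of all genes tested had. The LepK mean was 29.4% to 82.7% of the IgGK mean over the family: *Eln* kept 82.7% of its mean IgGK level, *Fbln5* 82.1% and *Fbln1* 72.1%, whereas *Fbn1* kept 39.4%, *Mfap5* 33.5% and *Fbn2* 29.4%. Whether these falls differ between genes was not tested.

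The 7 calls in LepK against IgGK became 5 without IgGK replicate 1 or 2 or LepK replicate 1 or 3, and 8 without LepK replicate 2. Over all genes, 1174 were called down with every library, 695 to 1036 in the fits that gave 5, and 1271 without LepK replicate 2. *Fbn1*, *Fbln2*, *Efemp2*, *Emilin1* and *Mfap5* were called with any 1 of the 6 libraries left out. Scaling changed some of the kidney values. By library size alone *Fbln5* was called up-regulated in IgGK against WTK at 0.62 (edgeR, adjusted p = 0.000508), *Fbln1* was called down-regulated in LepK against IgGK at −0.65 (edgeR, adjusted p = 0.00809), and *Fbln5* in LepK against WTK changed sign to 0.15 without being called. With that scaling the median of all genes in IgGK against WTK was 0.48, and 7803 genes were called up and 1178 down, against 4253 and 3057 with TMM. For LepK against IgGK these were −0.19, 408 and 2185, against 858 and 1174, and for LepK against WTK 0.29, 4782 and 512, against 2984 and 1431.

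Genes that act on the fibre were called in kidney too. Of the 9 cross-linking and secretion genes, 7 were up-regulated in IgGK against WTK and 7 down-regulated in LepK against IgGK. *Lox*, the lysyl oxidase that cross-links elastin and collagen, rose by 3.48 ± 0.24 (edgeR, adjusted p = 1.9e-07) and fell by 1.07 ± 0.20 with LepAb (edgeR, adjusted p = 0.00323). *Loxl2* rose by 2.37 ± 0.16 (edgeR, adjusted p = 1.69e-07) and fell by 0.91 ± 0.15 (edgeR, adjusted p = 0.00129), and the copper transporter *Atp7a*, which loads lysyl oxidase, fell by 0.88 ± 0.17 with LepAb (edgeR, adjusted p = 0.00343). Of 9 elastin-degrading proteases tested, 8 rose and 6 fell. The macrophage elastase *Mmp12* rose by 5.04 ± 0.24 (edgeR, adjusted p = 2.44e-08) and fell by 2.59 ± 0.20 (edgeR, adjusted p = 5.62e-05). Matrilysin, *Mmp7*, rose by 8.75 ± 0.46 (edgeR, adjusted p = 4.03e-08) and fell by 1.78 ± 0.25 (edgeR, adjusted p = 0.000648).

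Among 11 elastase and metalloproteinase inhibitors, 6 were up-regulated and 1 down-regulated in IgGK against WTK. *Timp1* rose by 5.13 ± 0.30 (edgeR, adjusted p = 7.27e-08), and *Timp3*, the inhibitor that is held in the matrix, was the one that fell, by 1.70 ± 0.12 (edgeR, adjusted p = 2.45e-07). With LepAb 1 inhibitor was up-regulated, *Serpina1d* (0.59 ± 0.09, edgeR, adjusted p = 0.00118), a member of a family of near-identical copies whose reads may be split, and 1 was down-regulated, *Timp1* (−1.32 ± 0.23, edgeR, adjusted p = 0.00189). The receptors of elastic fibres were called in both directions. Of 12, 5 rose and 3 fell in IgGK against WTK. The integrin chain *Itgb3* rose by 2.11 ± 0.22 (edgeR, adjusted p = 5.15e-06), while *Neu1*, the sialidase of the elastin receptor complex, fell by 1.53 ± 0.10 (edgeR, adjusted p = 1.14e-07) and *Glb1* by 1.08 ± 0.12 (edgeR, adjusted p = 5.59e-06). The elastin-binding protein is a splice variant of *Glb1* that gene counts do not separate. With LepAb 1 receptor was up-regulated, *Neu1* (0.60 ± 0.09, edgeR, adjusted p = 0.00119), and 3 integrin chains were down-regulated, among them *Itgb3* (−1.19 ± 0.21, edgeR, adjusted p = 0.00217) and *Itga9* (−0.59 ± 0.11, edgeR, adjusted p = 0.00326).

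Of 13 microfibril partners (LTBP and ADAMTS-like genes), 9 were up-regulated in IgGK against WTK and 3 down-regulated with LepAb. *Ltbp2*, which binds fibrillin-1 and fibulin-5, rose by 5.51 ± 0.40 (edgeR, adjusted p = 2.78e-07) and fell by 1.08 ± 0.29 (edgeR, adjusted p = 0.0192). Of 8 family relatives tested, 4 rose and 3 fell. *Mfap2*, another microfibril protein, rose by 2.33 ± 0.24 (edgeR, adjusted p = 4.59e-06) and fell by 0.82 ± 0.22 (edgeR, adjusted p = 0.0209). Of 6 TGF-beta and BMP ligands tested, 4 were up-regulated and *Bmp7* was down-regulated in IgGK against WTK (−1.07 ± 0.09, edgeR, adjusted p = 6.67e-07). With LepAb 2 were down-regulated, *Bmp2* (−1.09 ± 0.24, edgeR, adjusted p = 0.0084) and *Tgfb1* (−0.66 ± 0.13, edgeR, adjusted p = 0.00456). All 8 interstitial collagens on the list were up-regulated with folic acid, with a median log2 fold change of 1.96, and all 8 were down-regulated with LepAb, with a median of −0.96, beside −0.88 for the elastic fibre genes.

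Markers of some cell types moved with these values, and those of others did not. The summed CPM of 9 fibroblast markers was 126 to 165 in WTK, 626 to 718 in IgGK and 289 to 433 in LepK. Of the 9, 7 were up-regulated in IgGK against WTK and 5 down-regulated with LepAb. The collagen *Col1a1* was the largest of them, at a mean of 170 CPM over the kidney libraries. The summed CPM of 9 macrophage markers was 200 to 231 in WTK, 1795 to 2290 in IgGK and 638 to 955 in LepK. Proximal tubule markers moved the other way, at 47114 to 49332, 11621 to 18485 and 25284 to 34210 CPM. Of the smooth muscle markers, another source of elastin, 9 were tested. In IgGK against WTK 4 were up-regulated and *Myh11* down-regulated (−0.55 ± 0.11, edgeR, adjusted p = 0.00105). *Myh11* alone was called with LepAb, as up-regulated (0.70 ± 0.11, edgeR, adjusted p = 0.00118). Their summed CPM was 181 to 204 in WTK, 215 to 230 in IgGK and 223 to 261 in LepK. Of 7 mesothelial markers, 5 were up-regulated and *Gpm6a* down-regulated in IgGK against WTK (−0.75 ± 0.13, edgeR, adjusted p = 0.000335), and 2 were down-regulated with LepAb. Their sums overlapped at 175 to 176, 163 to 200 and 184 to 200 CPM. These sums lean on *Gpm6a*, whose mean of 123 CPM over the kidney libraries was the largest on the list, with *Krt19* next at 25.4 CPM. Adipocyte markers summed to 88.9 to 201 CPM in WTK, 490 to 811 CPM in IgGK and 214 to 455 CPM in LepK. Of these 6, 5 were up-regulated and *Lep*, the gene of leptin, down-regulated in IgGK against WTK (−1.82 ± 0.49, edgeR, adjusted p = 0.00681). With LepAb 1 was down-regulated, *Adipoq* (−1.26 ± 0.40, edgeR, adjusted p = 0.0429). The part of these cell types in the values of the elastic fibre genes was not tested.

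In the bleomycin lung 4 of the 10 genes were down-regulated in LepL against IgGL and none was up-regulated, where 2.36% of the 19617 genes tested were called down and 1.78% up. They were *Eln*, *Fbn1*, *Fbln2* and *Emilin1*. In 5 genes, these and *Mfap5*, every LepL library was below every IgGL library, which held for 17.3% of all genes tested.

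*Eln* was 3504, 4595 and 2690 CPM in IgGL and 1389, 1551 and 832 CPM in LepL. The groups were apart, and replicate 3 was the lowest of each. The fall was 1.52 ± 0.27 (edgeR, adjusted p = 0.0336), with a LepL mean at 35.0% of the IgGL mean. *Fbn1* was 497, 693 and 662 CPM in IgGL and 276, 271 and 186 CPM in LepL. Its fall of 1.34 ± 0.19 (edgeR, adjusted p = 0.0327) was close in size to the fall in kidney.

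*Fbln2* was 82.5, 197 and 230 CPM in IgGL and 46.0, 52.5 and 37.3 CPM in LepL. The groups did not overlap, although IgGL replicate 1 was well below the others of its group. The fall was 1.91 ± 0.33 (edgeR, adjusted p = 0.0327). *Emilin1* was 203, 236 and 239 CPM in IgGL and 134, 112 and 98.0 CPM in LepL, also apart, and fell by 0.98 ± 0.14 (edgeR, adjusted p = 0.0327).

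The fibulin genes *Fbln5*, *Fbln1* and *Efemp2* did not pass the test in lung. *Fbln5* was 259, 198 and 102 CPM in IgGL and 290, 263 and 226 CPM in LepL, with a difference of 0.48 ± 0.28 (edgeR, adjusted p = 0.309). *Fbln1* was 62.7, 36.7 and 26.5 CPM in IgGL and 58.1, 61.8 and 66.5 CPM in LepL, with a difference of 0.57 ± 0.26 (edgeR, adjusted p = 0.201). For both genes IgGL replicate 1 lay within the LepL range and the other IgGL libraries lay below it. Without that library both were called up-regulated, *Fbln1* at 0.97 (edgeR, adjusted p = 0.0035) and *Fbln5* at 0.79 (edgeR, adjusted p = 0.0483). So were 1937 genes over all genes tested, against 349 with that library. *Efemp2* was 92.2, 83.7 and 96.8 CPM in IgGL and 86.8, 78.0 and 68.6 CPM in LepL, a difference of −0.22 ± 0.11 (edgeR, adjusted p = 0.238).

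*Mfap4* was 747, 421 and 323 CPM in IgGL and 491, 547 and 357 CPM in LepL. The groups overlapped fully, and the difference was −0.09 ± 0.29 (edgeR, adjusted p = 0.864). *Mfap5* was 109, 93.5 and 96.0 CPM in IgGL and 78.9, 72.8 and 61.0 CPM in LepL, apart but not called at −0.49 ± 0.12 (edgeR, adjusted p = 0.054). *Fbn2* was 5.90, 4.05 and 2.23 CPM in IgGL and 3.20, 2.83 and 1.96 CPM in LepL, with a difference of −0.61 ± 0.37 (edgeR, adjusted p = 0.326).

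**Figure D3:**
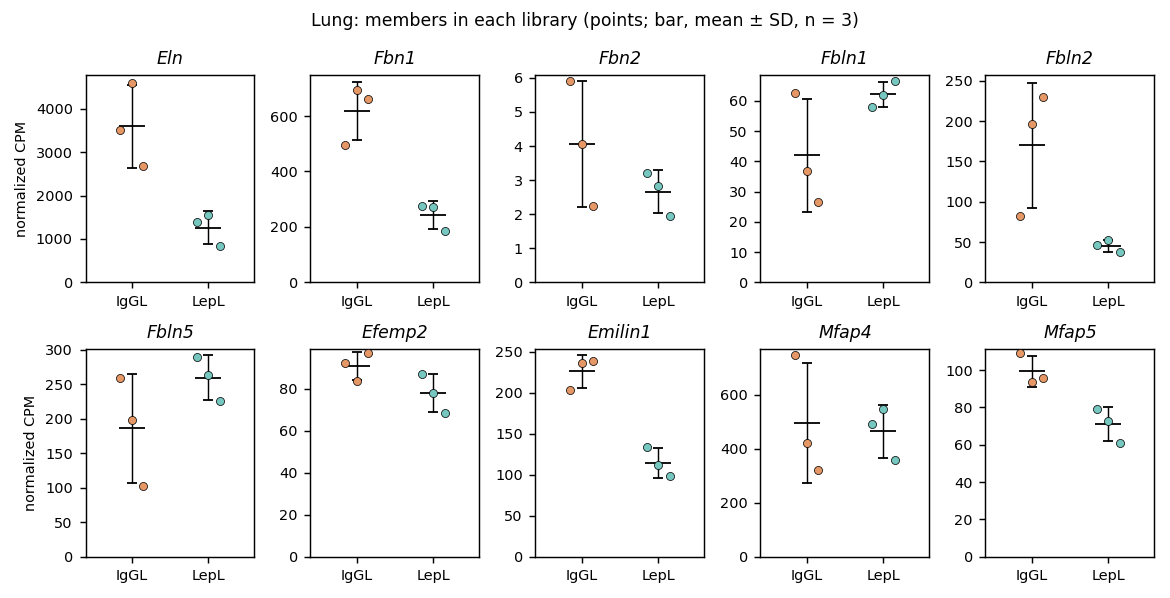
Normalized CPM of each gene in the 6 lung libraries, 1 panel per gene with its own scale from 0, with points for libraries and bars for mean ± SD (n = 3). *Eln*, *Fbn1*, *Fbln2*, *Emilin1* and *Mfap5* are lower in every LepL library, and IgGL replicate 1 is the left point of its group, high for *Fbln1*, *Fbln5* and *Mfap4* and low for *Fbln2*.

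The lung calls depended on the fit. With glmTreat, which tests against a log2 fold change of 0.5, 0 of the 10 genes were called (adjusted p = 0.134 to 0.143 for the 4). Of the 4, 0 were called without IgGL replicate 2 or 3 or LepL replicate 2 or 3, and 1, *Emilin1*, without LepL replicate 1. Over all genes tested, 0 were called with glmTreat, and 0 without IgGL replicate 2 or LepL replicate 2 or 3. Without IgGL replicate 3, 3 genes in all were called up and 1 down, and without LepL replicate 1, 18 and 4. These losses were therefore not particular to the 10 genes. Without IgGL replicate 1, 6 of the 10 genes were called, the 4 that fell and the 2 fibulins that rose. Calls over all genes rose as well without that library, to 1937 up and 1602 down, against 349 and 463 with it. The falls themselves kept their size: *Eln* ranged from −1.69 to −1.29, *Fbn1* from −1.47 to −1.17, *Fbln2* from −2.24 to −1.63 and *Emilin1* from −1.10 to −0.88 with 1 library left out. The adjusted p of *Eln* from edgeR ranged from 0.00756 to 0.176 in these fits.

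Of the 9 cross-linking and secretion genes, 6 were down-regulated in LepL and none up-regulated, with *Lox* at −1.61 ± 0.30 (edgeR, adjusted p = 0.035), *Loxl4* at −1.20 ± 0.26 (edgeR, adjusted p = 0.0418) and the tropoelastin chaperone *Fkbp10* at −1.12 ± 0.19 (edgeR, adjusted p = 0.0327). All 8 collagens on the list were down-regulated, with a median of −1.12. Of 9 family relatives 1 was called, *Efemp1* (fibulin-3), as up-regulated at 1.21 ± 0.28 (edgeR, adjusted p = 0.0497). Of 13 microfibril partners 1 was down-regulated, *Ltbp1* (−0.71 ± 0.14, edgeR, adjusted p = 0.0365). Of 8 proteases 2 were down-regulated, *Ctsl* (−0.93 ± 0.21, edgeR, adjusted p = 0.0492) and *Mmp14* (−0.87 ± 0.17, edgeR, adjusted p = 0.0365). Of 6 inhibitors *Serpinb1a* was up-regulated (0.58 ± 0.12, edgeR, adjusted p = 0.042) and *Timp1* down-regulated (−2.33 ± 0.47, edgeR, adjusted p = 0.0387). Of 12 receptors 2 integrin chains were down-regulated, *Itga5* (−1.71 ± 0.35, edgeR, adjusted p = 0.0395) and *Itgb5* (−0.51 ± 0.12, edgeR, adjusted p = 0.0495), and of 7 TGF-beta and BMP ligands 0 were called by edgeR.

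Markers of cell types were compared between the lung groups too. The summed CPM of fibroblast markers was 3256 to 3608 in IgGL and 1634 to 2077 in LepL. Of the 9, 2 were down-regulated, the collagen *Col1a1* (mean 1610 CPM, −1.21 ± 0.20, edgeR, adjusted p = 0.0327) and *Pdgfra* (−0.90 ± 0.16, edgeR, adjusted p = 0.0327), and the median log2 fold change of the list was only −0.15, with 3 higher and 6 lower. Smooth muscle markers summed to 790 to 952 CPM and 583 to 833 CPM, with 1 of 10 down-regulated, *Acta2*. Mesothelial markers, of which 3 of 7 were up-regulated, summed to 785 to 1040 CPM and 945 to 1056 CPM. Alveolar and airway markers summed to 16424 to 22195 CPM in IgGL and 30198 to 47321 CPM in LepL, and 2 of 7 were up-regulated. Markers of cardiac muscle summed to 152 to 226 CPM in IgGL and 227 to 642 CPM in LepL, with 3 of 7 up-regulated, and those of adipocytes to 60.7 to 132 CPM and 170 to 257 CPM, with 2 of 5 tested up-regulated. Macrophage markers summed to 4051 to 6907 CPM in IgGL and 8183 to 8436 CPM in LepL, although 3 of the 9 were down-regulated and their median log2 fold change was −0.69. Only 1 of the 9 was higher in LepL and 8 were lower. The higher one was *Lyz2* (mean 5410 CPM), at 0.98 ± 0.28 without being called (edgeR, adjusted p = 0.0752). The part of these cells in the lung values was not tested.

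**Figure D4:**
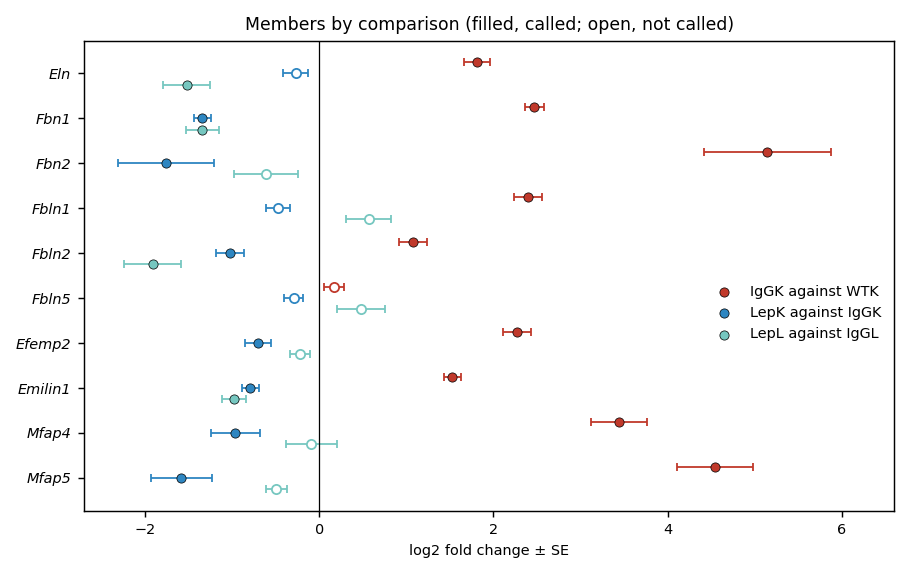
Log2 fold changes ± SE of the 10 genes in IgGK against WTK, LepK against IgGK and LepL against IgGL, with filled points for called genes and open points for those not called. *Fbn1*, *Fbln2* and *Emilin1* are filled below 0 in both antibody comparisons.

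The antibody effect in kidney was set against that in lung in a fit of the 12 injured libraries, with the organs differing also in injury and day. At an adjusted p under 0.05, 7.12% of 21488 genes differed, and of the 10 genes 1 did, *Eln*. Its log2 fold change with LepAb was 1.27 ± 0.33 higher, that is less negative, in kidney than in lung (edgeR, adjusted p = 0.0396). The means were 35.4 ± 1.95 and 29.2 ± 6.82 CPM in IgGK and LepK, and 3596 ± 956 and 1257 ± 377 CPM in IgGL and LepL. The call was lost with library size scaling, where the difference was 1.03 (edgeR, adjusted p = 0.0771), and in 9 of the 12 fits that left out 1 library, with a range of 1.05 to 1.45. For the other 9 genes the difference did not pass the test. It was 0.02 ± 0.23 for *Fbn1* (edgeR, adjusted p = 0.983), −1.01 ± 0.31 for *Fbln1* (edgeR, adjusted p = 0.0694) and −1.06 ± 0.37 for *Mfap5* (edgeR, adjusted p = 0.0969). Without IgGL replicate 1, 6 of the 10 genes were called. Over all genes, 1853 were then called higher and 1910 lower in kidney, against 754 and 777 with that library. Library size scaling also shifted the split over all genes, to 249 higher and 1968 lower in kidney against 754 and 777 with TMM, and upper quartile scaling to 571 and 912.

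Between the injured organs with control IgG, 7 of the 10 genes were higher in IgGL than in IgGK and 1 was lower, where 24.2% and 26.3% of all genes were called in these directions. Organ, injury and day cannot be told apart in this comparison. *Eln* was 6.42 ± 0.30 higher in lung (edgeR, adjusted p = 4.48e-10) and *Mfap4* 5.11 ± 0.33 higher (edgeR, adjusted p = 1.22e-08), the largest differences among the 10. *Fbn2* was the one that was lower in lung, at −1.05 ± 0.33 (edgeR, adjusted p = 0.0141). That call was lost with all 15 libraries in the fit (edgeR, adjusted p = 0.115) and with glmTreat (adjusted p = 0.0539). It was also lost without IgGK replicate 2 or IgGL replicate 3 (edgeR, adjusted p = 0.0664 and 0.0528). *Fbln1* and *Fbln5* did not pass the test at 0.52 ± 0.22 and 0.49 ± 0.23 (edgeR, adjusted p = 0.0577 and 0.0865). Both were called with DESeq2 (adjusted p = 0.0324 and 0.0479) and without IgGL replicate 3 (edgeR, adjusted p = 0.00187 and 8.64e-05).

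Other genes had profiles close to those of the family. Likeness was the root mean square difference of log2 CPM (with 0.5 added) over the 15 libraries after centring within each organ, among 16311 genes with a symbol and a mean of at least 1 CPM. Closest to *Fbn1* were *Col5a1* at 0.152, *Tlr13* at 0.186 and *Loxl2* at 0.198. Closest to *Eln* were *Clca3a1* at 0.276, *Loxl3* at 0.286 and *Adamts7* at 0.291, and closest to *Mfap4* were *Il1rl1* at 0.213, *Thy1* at 0.241 and *Mpeg1* at 0.246. Within the family, *Emilin1* was nearest to *Fbn1* at 0.326 and to *Eln* at 0.366, and *Efemp2* nearest to *Mfap4* at 0.418. These distances are descriptions over libraries that share groups and depth.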

How the data were processed

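Total RNA of 9 kidney and 6 lung samples had been made into poly(A), non-directional libraries by a provider. The deposited table gives whole-number counts per gene without normalization, and FPKM values that the authors made from them. The FPKM values imply a library size 1.02 to 1.46 times the summed counts, so levels between groups on that scale carry this factor, and shares within a library do not. The table also gives gene length, group means and the authors' own fold changes and p-values, which were not used. The submitters' processing notes name GRCm39, mm39 and DESeq2, and the aligner and the counting tool are not given in the sources used here. Groups follow title, tissue and treatment, and doses and days come from the study's methods. A line of the sample descriptions that points to a column contradicts these and was ignored.

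Counts were filtered with filterByExpr (minimum count 10, minimum total 15), scaled by TMM and fitted with edgeR 4.0.16 (glmQLFit, glmQLFTest) in R 4.3.3, for the 9 kidney libraries, the 6 lung libraries and the 12 injured libraries apart. SE is the absolute log2 fold change over the square root of F. The alternatives tried were DESeq2 1.42.0, scaling by RLE, upper quartile or library size, other filters, other samples in the fit, the replicate number as a block, glmTreat, other thresholds and leaving out each library. The fit was tested on simulated data before use. Genes were named by a rule: the 10 genes everywhere, and from each list at most the 3 with the largest change among those called, with a mean of at least 1 CPM, and those against the direction of their list. The genes, lists and comparisons were chosen with earlier results of these data known.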

Additional observations from a re-analysis of the deposited data

Results flagged for a closer look

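*Eln* was flagged because its response to LepAb differed between the organs by a test of the difference itself. The log2 difference of the antibody effects, kidney minus lung, was 1.27 ± 0.33 (edgeR, adjusted p = 0.0396, 12 libraries). It came from a difference of −0.27 in kidney, where the groups overlapped, and of −1.52 in lung, where all 3 LepL libraries were below all 3 IgGL libraries. The adjusted p ranged from 0.0261 to 0.0957 when 1 library was left out. Organ, injury and day cannot be told apart in this difference.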

How the results depend on the processing

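Of the 1100 values of single genes under the alternatives, 992 kept their direction and their side of the threshold, 66 lost the call, 27 gained it and 15 changed sign, none of these 15 being called under the alternative. The count of called genes in IgGK against WTK was 9 under each alternative except library size scaling, with 10. In LepK against IgGK the count of 7 became 2 with glmTreat and 4 with a fold threshold of 1, and was 5 to 8 with 1 library left out. Over all genes, 1174 were called down in the main fit, 137 with glmTreat and 428 with that threshold. With 1 library left out, 695 to 1271 were called down. In LepL against IgGL the count of 4 became 0 with glmTreat and was 0 to 6 with 1 library left out. Over all genes, these lung fits called 0 up and 0 down at the fewest and 1937 and 1602 at the most. Between the organs the count of 1 became 6 with no filter on low counts, where 1096 genes in all were called higher and 1563 lower in kidney. With glmTreat, where these were 19 and 54, the count became 0, and with 1 library left out it was 0 to 6. It was also 1 under library size scaling and without LepK replicate 2, but for *Fbln1* and *Mfap5* in place of *Eln*. In IgGL against IgGK the count was 6 with glmTreat and 7 to 10 otherwise, with *Fbln1* gained under RLE (0.55, edgeR, adjusted p = 0.0472), upper quartile scaling (0.56, edgeR, adjusted p = 0.0498), and *Fbln1* and *Fbln5* gained with no filter (edgeR, adjusted p = 0.00169 and 0.00173). Over all genes, glmTreat called 4117 higher and 4546 lower in lung in this comparison, against 5194 and 5651 in the main fit. glmTreat and the higher threshold ask for a larger change by construction. The cause of the other shifts was not tested.

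The replicate numbers did not pair the samples throughout: the correlation of same-numbered deviations was −0.055 to 0.2, and not every library correlated best with its own number. Between IgGK and LepK it was 0.2 and 0.176 for replicates 1 and 2, against at most 0.031 and 0.007 with another number. For replicate 3 it was −0.039. Whether part of these kidney samples were paired is not known. With the replicate number as a block, the count was 7 in LepK against IgGK, 9 in IgGK against WTK, 8 in LepK against WTK, 1 between the organs and 0 in lung (edgeR, adjusted p 0.0637 to 0.0764 for the 4 genes). Over all genes, 1 was called up and 3 down in lung with this block.

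Signs changed as follows. *Fbln5* in LepK against WTK was 0.15 with library size scaling. *Fbln2* there was −0.05 without WTK replicate 2 and −0.03 without LepK replicate 3, within −0.05 to 0.18 over such fits. *Mfap4* in lung was 0.32 without IgGL replicate 1 and 0.06 without LepL replicate 3, within −0.33 to 0.32. Between the organs *Emilin1* was −0.03 with library size scaling. *Fbn1* there was −0.22 with library size scaling, −0.04 with upper quartile scaling, −0.03 at a mean of at least 1 CPM and −0.01 with all 15 libraries in 1 fit, and −0.14 to 0.16 with 1 library left out. With 3 libraries a group, the depth limits *Fbn2* in WTK most, at 0 counts in 2 libraries.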

Other observations

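The summed FPKM of the 10 genes was 20.2, 23.6 and 25.2 in WTK, 63.6, 66.9 and 59.2 in IgGK, 32.9, 45.1 and 39.7 in LepK, 713, 688 and 481 in IgGL and 411, 435 and 290 in LepL. The library size behind this scale is 1.02 to 1.03 times the summed counts in WTK, 1.40 to 1.46 times in IgGK and 1.18 to 1.28 times in LepK, so no comparison between the kidney groups is drawn from it.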
